A study of Homo sapiens with 3 samples.

Results

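Solute carriers are the membrane proteins that move amino acids, sugars, metals, ions, vitamins and other small molecules across the plasma membrane and the membranes of organelles. The genes described here carry a symbol of the form SLC, family number, A and member number, or begin with SLCO, and had a probe with values on all 3 arrays. The mitochondrial SLC25A family, SLC7A5 and SLC3A2 were set aside. By this rule 123 of the 9394 genes with such a probe were members, and a further 105 genes with these symbols had values but no probe measured on every array. The symbol pattern takes in 7 genes that encode no carrier, namely the RNA genes SLC16A1-AS1, SLC12A2-DT, SLC67A1-AS and SLC9A3-OT1 and the protein genes SLC2A4RG, SLC4A1AP and SLC7A6OS, so that 116 carriers remained. It leaves out the letters other than A, so that the nucleotide sugar family is represented by SLC35A members alone.

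BEAS-2B, an immortalised line of human bronchial epithelial cells, was treated with MTX, a name given here as the labels write it, or with the solvent DMSO. The dose was 0.144 µM, called the IC20, for 48 h after 24 h in culture. Each of the 3 arrays compared RNA of MTX-treated cells in Cy5 with RNA of DMSO-treated cells in Cy3, with no exchange of dyes, so that a dye effect specific to a probe would be part of its ratio. The labels do not say whether the arrays came from separate cultures or whether DMSO RNA was pooled, so the p-values measure only the spread between 3 arrays, which may be technical.

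A value below is the log ratio of MTX over DMSO as deposited, averaged over the probes of a gene. Above 0 is read as higher with MTX, from the labelled dyes. The base of the log is not stated, so folds are given for base 10 and for base 2. Errors are SDs of 3 arrays (n = 3). A gene is said to rise or fall where limma's test of its mean against 0, fitted over all 9394 genes, gave a Benjamini-Hochberg adjusted p under 0.05. A ratio does not tell how abundant a transcript was, and dim spots could not be recognised. Of 6 epithelial marker genes fixed as a check of the label, 4 were measured. KRT18 fell to -0.159 and EPCAM rose to 0.278, while KRT8 averaged 0.0861 and KRT19 -0.107, neither past the test. Ratios cannot show that these markers were present.

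Carriers work in a few modes. Uniporters let a substrate run down its gradient, as the glucose transporters of the SLC2 family do. Symporters and antiporters couple a substrate to sodium, protons, chloride or another solute, so that the ion gradients set by pumps drive uptake into cells or release from organelles. Epithelial cells use them to take up nutrients, to set cell volume and pH, and to keep iron, zinc and copper within bounds.

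With MTX 26 members rose and 11 fell, and 86 did not pass. This is 30.1% of the members, against 29.0% of all genes called, so the share of members that changed was close to that of the array as a whole. Rises made up 21.1% of members and 16.6% of all genes, and falls 8.9% and 12.4%. Without the genes that encode no carrier, 25 of 116 rose and 10 fell. The median of the 123 means was 0.00795, beside 0.00742 over all genes. Most changes were small: on the base 10 reading 2 members rose at least 2-fold and 0 fell as much, and on the base 2 reading none of the members did either. Without array 3, 37 of the 123 members were higher and 18 lower, beside 2372 and 1915 of the 9394 genes. Without array 1 or array 2 limma called 0 of the 9394 genes. At limma's unadjusted p under 0.05, leaving out array 1 gave 25 members higher and 13 lower, beside 1699 and 1239 genes. Leaving out array 2 gave 21 and 11 members, beside 1363 and 1024 genes.

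**Figure D1:**
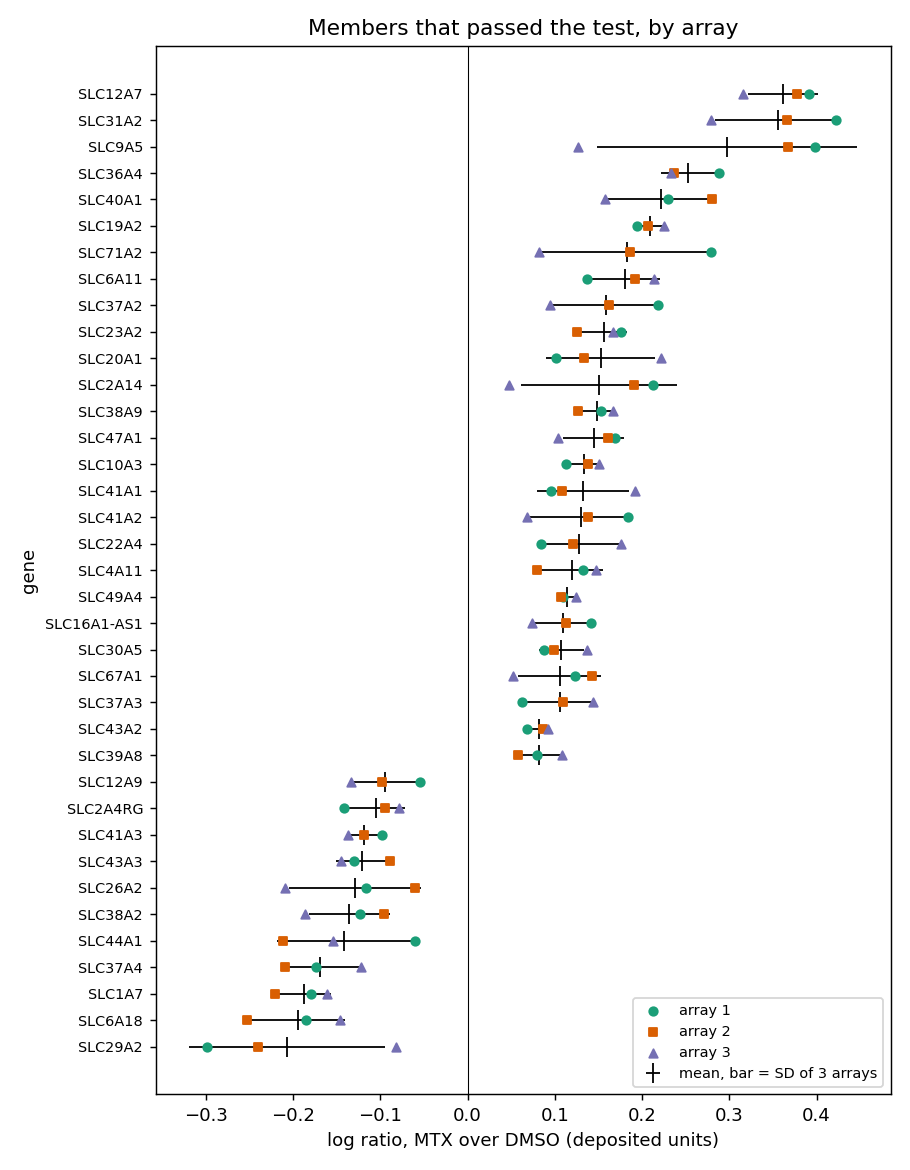
Log ratios of the 37 members that passed the test, in deposited units, on each of 3 arrays (coloured points), with the mean and the SD of the 3 arrays. SLC12A7 and SLC31A2 lie highest at means of 0.361 and 0.356, SLC29A2 lies lowest at -0.207, and SLC9A5, SLC2A14 and SLC29A2 lie much nearer to 0 on array 3 than on the other arrays.

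The highest member was SLC12A7, the potassium-chloride cotransporter KCC4, which lets cells lose potassium and chloride and thereby shrink (chr5:1050384-1155899 on GRCh38.p14). Its log ratios were 0.391, 0.377 and 0.316 on arrays 1, 2 and 3, a mean of 0.361 ± 0.0401 (adjusted p = 0.00866), which is 2.30-fold on base 10 and 1.28-fold on base 2. The arrays lay close together. A further probe of this gene had a value on array 3 alone and read 0.00227 there, far below the 0.316 of the probe used.

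SLC31A2, the copper transporter CTR2 of endosomes and lysosomes (chr9:113151007-113164140), came next with 0.422, 0.367 and 0.279, a mean of 0.356 ± 0.0720 (adjusted p = 0.00971), 2.27-fold or 1.28-fold. SLC36A4, a transporter of amino acids such as tryptophan and proline (chr11:93144174-93197991), had 0.288, 0.236 and 0.234. Its mean was 0.253 ± 0.0310 (adjusted p = 0.00971), and its probes lay close to each other at 0.239 and 0.266. The thiamine transporter gene SLC19A2 (chr1:169463909-169485970) was among the most even members, with 0.195, 0.206 and 0.225 and a mean of 0.209 ± 0.0151 (adjusted p = 0.00976). These 4 were the members with an adjusted p under 0.01. Like every other member that passed, they had the same sign on every array, which selection by p nearly fixes.

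The lowest member was SLC29A2, the equilibrative nucleoside transporter ENT2, which carries nucleosides and nucleobases (chr11:66362521-66372446). It read -0.298, -0.241 and -0.0821, a mean of -0.207 ± 0.112 (adjusted p = 0.0338), or 1.61-fold lower on base 10 and 1.15-fold on base 2. Array 3 was much nearer to 0 than the others, and the gene did not pass in the fit with probes on at least 2 arrays (adjusted p = 0.0580) or with a running mean along the table removed (adjusted p = 0.0872). SLC6A18, an amino acid transporter known from kidney, read -0.186, -0.253 and -0.146 (mean -0.195 ± 0.0542), and SLC1A7, the glutamate transporter EAAT5 known from retina, read -0.179, -0.221 and -0.162 (mean -0.187 ± 0.0307). Both are known from other tissues. Whether the spots of these or of any other member, risen or fallen, stood above background in these cells was not tested. SLC37A4, which brings glucose-6-phosphate into the endoplasmic reticulum, read -0.174, -0.209 and -0.122 (mean -0.169 ± 0.0436, adjusted p = 0.0158).

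Promoter sequences from RefSeq (GRCh38.p14) were found for 100 of the 123 members. The 250 bases before the start are shown for 3 of the members past 0.01 and for 2 of the members that fell. No such sequence was found for SLC31A2, the other member past 0.01, or for SLC29A2, the lowest member. The windows shown are examples and do not stand for the other changed carriers. Each reads 5′ to 3′ on the gene's own strand. The windows are chr5:1112064-1112313, chr11:93197992-93198241, chr1:169485971-169486220, chr11:119030878-119031127 and chr1:53142639-53142888, all on the minus strand. The window of SLC12A7 lies inside the annotated span of its gene, which reaches further upstream. Capitals mark letters of 3 motifs on either strand, the GC box (GGGCGG), the E-box (CACGTG) and the CCAAT box, which is searched by the letters of its name, and neighbouring GC boxes can overlap.
SLC12A7: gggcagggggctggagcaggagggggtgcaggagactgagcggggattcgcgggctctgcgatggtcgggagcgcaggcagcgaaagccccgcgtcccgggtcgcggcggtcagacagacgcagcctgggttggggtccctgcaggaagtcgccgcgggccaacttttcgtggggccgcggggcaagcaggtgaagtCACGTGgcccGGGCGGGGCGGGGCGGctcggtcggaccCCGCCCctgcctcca
SLC36A4: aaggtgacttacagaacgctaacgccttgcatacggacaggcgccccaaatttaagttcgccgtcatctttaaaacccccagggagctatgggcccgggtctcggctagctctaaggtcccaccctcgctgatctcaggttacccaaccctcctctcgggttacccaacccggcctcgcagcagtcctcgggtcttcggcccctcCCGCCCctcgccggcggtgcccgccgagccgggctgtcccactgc
SLC19A2: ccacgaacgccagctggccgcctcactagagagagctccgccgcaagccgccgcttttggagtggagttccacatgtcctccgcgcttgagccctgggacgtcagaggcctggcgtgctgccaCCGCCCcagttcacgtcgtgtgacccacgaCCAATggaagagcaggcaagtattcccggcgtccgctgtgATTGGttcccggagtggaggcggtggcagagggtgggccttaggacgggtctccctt
SLC37A4: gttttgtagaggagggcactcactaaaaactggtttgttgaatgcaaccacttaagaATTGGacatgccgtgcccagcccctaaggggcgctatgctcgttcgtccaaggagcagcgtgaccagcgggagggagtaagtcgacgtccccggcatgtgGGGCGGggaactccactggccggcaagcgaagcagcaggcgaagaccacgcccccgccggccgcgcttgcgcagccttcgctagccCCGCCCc
SLC1A7: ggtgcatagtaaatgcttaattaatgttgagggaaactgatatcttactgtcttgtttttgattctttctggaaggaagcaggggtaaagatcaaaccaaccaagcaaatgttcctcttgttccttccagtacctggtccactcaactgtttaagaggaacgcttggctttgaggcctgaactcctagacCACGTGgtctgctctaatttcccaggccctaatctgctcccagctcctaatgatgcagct

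The window of SLC12A7 holds 4 GC boxes and 1 E-box in 74.4% G and C, and that of SLC1A7 holds 1 E-box and 0 GC boxes in 44.8% G and C. SLC19A2 has 1 GC box and 2 CCAAT boxes, SLC37A4 has 2 GC boxes and 1 CCAAT box, and SLC36A4 has 1 GC box. The window of SLC6A18, which is not shown, has 0 GC boxes, 0 E-boxes and 0 CCAAT boxes in 55.2% G and C. The E-box was present in 9 of the 100 member promoters, in 8.95% of 7679 promoters of genes on the arrays and in 6.49% of all 27303 promoters. By call, it was present in 4 of 19 promoters of members that rose (SLC12A7, SLC9A5, SLC20A1 and SLC22A4), in 2 of 9 of members that fell (SLC26A2 and SLC1A7) and in 3 of 72 of the others. The GC box was present in 16 of 19, 7 of 9 and 45 of 72 promoters in the same order. Over all members it was present in 68 of 100, against 66.04% of promoters of genes on the arrays and 42.31% of all promoters. The median share of G and C by call was 70.4%, 66% and 65.6% in that order. The CCAAT box was present in 34.0% of member promoters, 35.86% of promoters of genes on the arrays and 33.04% of all. By call, it was present in 5 of 19, 3 of 9 and 26 of 72. TATA boxes (TATAAA) were present in 5 member promoters, sites for AP-1 (TGANTCA) in 5, cyclic AMP response elements (TGACGTCA) in 2 and cores of the antioxidant response element (TGACNNNGC) in 9. In the same order, the shares were 5.96%, 3.80%, 2.85% and 12.08% of promoters of genes on the arrays, and 11.13%, 6.60%, 1.77% and 11.04% of all promoters. Among risen, fallen and other members, TATA boxes were present in 0, 0 and 5 promoters and AP-1 sites in 1, 0 and 4. Cyclic AMP response elements were present in 0, 0 and 2, and antioxidant response cores in 3, 0 and 6. These matches describe letters in a window and no more, and the counts by call were set side by side after the calls were known.

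Counts of the substrate groups and families below stand beside the 16.6% of all genes that rose and 12.4% that fell. Groups with at least 9 carriers had 20% to 44.4% called and smaller ones 0% to 50%, against 29.0% of all genes. Differences between groups were not tested. Carriers of zinc, copper, iron and other metals formed the largest group, with 6 of 21 higher and 1 lower (33.3% called). Besides SLC31A2, the iron exporter ferroportin, SLC40A1 (chr2:189560590-189580786), read 0.229, 0.280 and 0.158, a mean of 0.222 ± 0.0613 (adjusted p = 0.0135). Its other probe, with a value on array 2 alone, read 0.581. The copper importer of the plasma membrane, SLC31A1, is the paralogue of SLC31A2 and did not pass: it read 0.0125, 0.0226 and -0.266 (mean -0.0769 ± 0.164, adjusted p = 0.399). The low value on array 3 came from a single spot at -0.666, while the other probe used for the gene read 0.135 there. Without array 3 the mean of SLC31A1 was 0.0176. Further probes of SLC31A1, with a value on array 2 alone, read -0.252 and 0.0476.

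All 3 measured magnesium carriers of the SLC41 family passed, and not in the same direction, but each lost its call in at least 1 of 7 fits with other settings. SLC41A1, a magnesium exchanger of the plasma membrane, read 0.0956, 0.109 and 0.192 (mean 0.132 ± 0.0523, adjusted p = 0.0291). SLC41A2 read 0.184, 0.138 and 0.0680 (mean 0.130 ± 0.0584, adjusted p = 0.0343). SLC41A3, described in mitochondria, read -0.0983, -0.119 and -0.137 (mean -0.118 ± 0.0196, adjusted p = 0.0210), and its other probe read -0.0429 on array 2 and 0.135 on array 3.

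Zinc is carried by members of the SLC30 and SLC39 families. Of 6 members of the SLC30 family, which carry zinc out of the cytosol, 1 rose and 0 fell, and of 8 members of the SLC39 family, which bring zinc in, 1 rose and 0 fell. SLC30A5, a zinc transporter of the Golgi apparatus, read 0.0872, 0.0989 and 0.137 (mean 0.108 ± 0.0258). Its 4 probes ran from 0.0253 to 0.162, and with the first of them alone its adjusted p was 0.470. SLC39A8, an importer of zinc and manganese also known as ZIP8, read 0.0792, 0.0581 and 0.109 (mean 0.0819 ± 0.0253, adjusted p = 0.0494). SLC39A14, an importer of zinc, manganese and iron, read -0.132, 0.00298 and -0.00972 (mean -0.0464 ± 0.0748, adjusted p = 0.342). The zinc exporter of the plasma membrane, SLC30A1, had values on 2 arrays only, 0.175 and 0.171 on arrays 2 and 3.

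**Figure D2:**
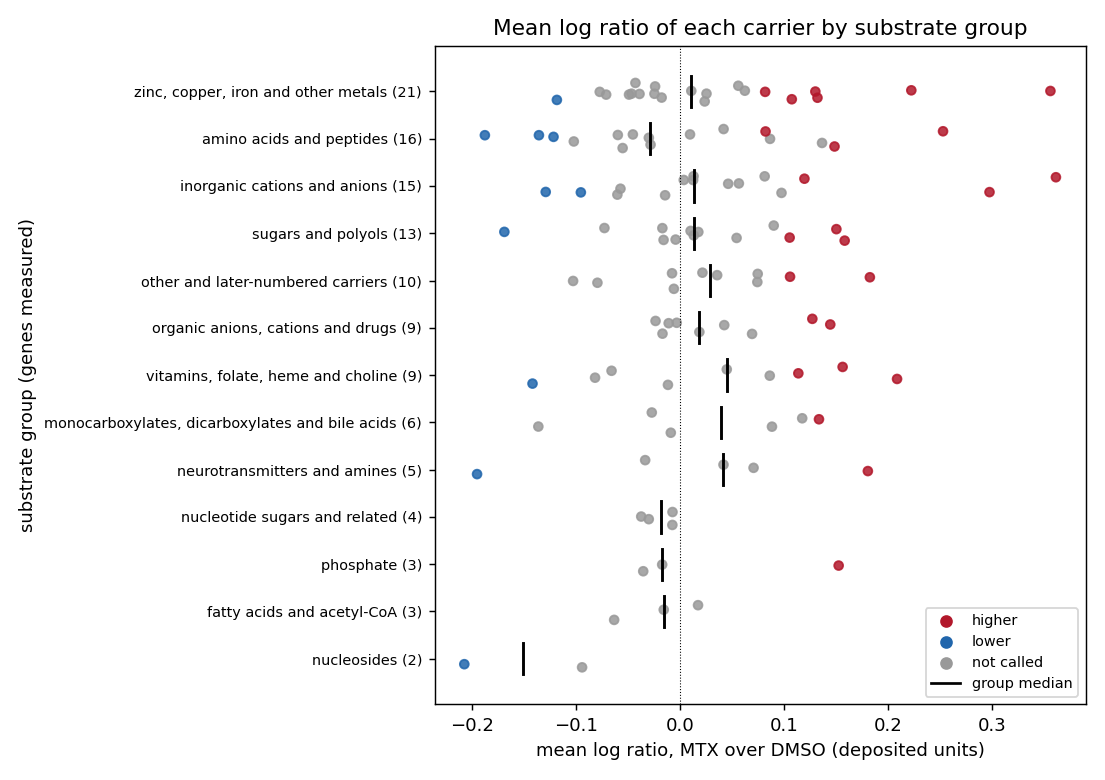
Mean log ratio (deposited units, horizontal) of each of 116 carriers by substrate group (vertical, number measured in brackets), coloured by call, with the group median as a bar. Metal carriers reach from -0.118 to 0.356, and groups with at least 5 carriers have medians between -0.0289 and 0.0451.

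Amino acid carriers split evenly, with 3 higher and 3 lower of 16. SLC36A4 and SLC1A7 were its extremes. SLC38A9, the lysosomal arginine sensor that signals to the growth kinase complex mTORC1, read 0.153, 0.126 and 0.167 (mean 0.149 ± 0.0206, adjusted p = 0.0142). SLC38A2, the sodium-coupled glutamine and alanine transporter SNAT2, read -0.124, -0.0959 and -0.186 (mean -0.135 ± 0.0464, adjusted p = 0.0249). Its 3 probes averaged -0.308, -0.0926 and -0.00501, so that the gene's mean rests on unlike spots. SLC43A2, a transporter of branched-chain and aromatic amino acids, read 0.0685, 0.0865 and 0.0919 (mean 0.0823 ± 0.0122). SLC43A3, placed here by its family and described as a carrier of purine nucleobases, read -0.130, -0.0889 and -0.145 (mean -0.121 ± 0.0291).

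The cystine-glutamate exchanger SLC7A11, which supplies cystine for glutathione, read -0.0590, -0.0584 and 0.0331 (mean -0.0281 ± 0.0530, adjusted p = 0.473). This mean hides probes that disagreed on every array. One read -0.373, -0.354 and -0.0989 (mean -0.275, adjusted p = 0.0305 over single probes) and the other 0.255, 0.238 and 0.165 (mean 0.219, adjusted p = 0.0108). A further probe had values on arrays 1 and 2 only, -0.197 and -0.0664. The annotation gives them the same transcript accession, and their positions on it are not given in the sources used here, so no direction is stated for this gene.

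Among carriers of inorganic ions 3 of 15 rose and 2 fell. SLC9A5, the sodium-proton exchanger NHE5, read 0.398, 0.368 and 0.126, a mean of 0.297 ± 0.149 (adjusted p = 0.0265). SLC4A11, a membrane protein of the bicarbonate transporter family that carries protons, read 0.132, 0.0797 and 0.147 (mean 0.120 ± 0.0354). SLC26A2, the sulfate transporter whose loss impairs cartilage, read -0.117, -0.0603 and -0.209 (mean -0.129 ± 0.0753, adjusted p = 0.0499), the member nearest to the threshold. SLC12A9, a family relative of SLC12A7, read -0.0540, -0.0976 and -0.134 (mean -0.0951 ± 0.0398, adjusted p = 0.0464). SLC12A2, the cotransporter NKCC1 that loads cells with sodium, potassium and chloride, read -0.0382, 0.0956 and 0.113 and did not pass (mean 0.0567 ± 0.0826, adjusted p = 0.285). Of its probes, one averaged 0.138 (adjusted p = 0.0228 over single probes) and the other -0.0247.

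In the vitamin, folate, heme and choline group 3 of 9 rose and 1 fell. SLC23A2, the ascorbate transporter SVCT2, read 0.176, 0.126 and 0.167 (mean 0.156 ± 0.0268, adjusted p = 0.0141). SLC49A4, a lysosomal membrane protein, was very even at 0.109, 0.108 and 0.124 (mean 0.114 ± 0.00915, adjusted p = 0.0205). SLC44A1, the choline transporter CTL1, read -0.0598, -0.211 and -0.154 (mean -0.141 ± 0.0764, adjusted p = 0.0411). The intestinal proton-coupled folate transporter SLC46A1 read -0.0423, -0.0755 and 0.0835 (mean -0.0114 ± 0.0839, adjusted p = 0.829).

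Sugar and polyol carriers had 3 higher and 1 lower of 13. In the SLC37 family of sugar-phosphate exchangers, SLC37A2 read 0.219, 0.162 and 0.0946 (mean 0.158 ± 0.0620) and SLC37A3 read 0.0623, 0.110 and 0.144 (mean 0.105 ± 0.0410), against the fall of SLC37A4. Of 6 members of the SLC2 family 1 rose: SLC2A14 read 0.212, 0.191 and 0.0480 (mean 0.150 ± 0.0893, adjusted p = 0.0462). SLC2A14 is a close copy of the glucose transporter gene SLC2A3, so it is uncertain which transcript the probe reported. SLC2A3 itself had a value on array 2 alone, -0.212. The main glucose transporter SLC2A1 read 0.100, 0.0547 and 0.00870 (mean 0.0545 ± 0.0457, adjusted p = 0.170).

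Of 3 phosphate carriers 1 rose. SLC20A1, a sodium-phosphate cotransporter, read 0.102, 0.134 and 0.222 (mean 0.153 ± 0.0623), while its relative SLC20A2 read 0.0206, -0.0602 and -0.0113 (mean -0.0170 ± 0.0407, adjusted p = 0.625). SLC34A3, a phosphate transporter known from kidney, read 0.0311, -0.0118 and -0.125 (mean -0.0352 ± 0.0805, adjusted p = 0.487). Of 9 carriers of organic ions and drugs 2 rose. SLC22A4, a transporter of ergothioneine, read 0.0844, 0.121 and 0.176 (mean 0.127 ± 0.0462). SLC47A1, an exporter of organic cations also called MATE1, read 0.169, 0.161 and 0.104 (mean 0.144 ± 0.0352, adjusted p = 0.0181). A second probe of SLC47A1 read -0.153 and -0.159 on arrays 1 and 2, and with it the gene averaged 0.0375 (adjusted p = 0.426). SLCO3A1, an organic anion transporter, read -0.125, -0.119 and 0.211 (mean -0.0107 ± 0.192, adjusted p = 0.920). SLC22A15, a relative of the organic cation transporters, read -0.0129, 0.0754 and 0.0654 (mean 0.0426 ± 0.0483).

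Of 5 carriers of neurotransmitters and amines, SLC6A11, the GABA transporter GAT3, rose with 0.137, 0.192 and 0.213 (mean 0.181 ± 0.0396, adjusted p = 0.0135), and SLC6A18 fell. SLC17A7, a vesicular glutamate transporter, read 0.0856, 0.0437 and 0.0831 (mean 0.0708 ± 0.0235, adjusted p = 0.0661). Of 6 carriers grouped with monocarboxylates and bile acids 1 rose, SLC10A3, whose substrate is not known, with 0.113, 0.138 and 0.150 (mean 0.134 ± 0.0191, adjusted p = 0.0165). SLC10A4 read 0.196, 0.136 and 0.0205 (adjusted p = 0.0796) and SLC16A5, a monocarboxylate transporter, 0.0255, 0.0606 and 0.179 (adjusted p = 0.125). The nucleoside carrier SLC28A3 read 0.0925, 0.0480 and -0.422 (mean -0.0939 ± 0.285, adjusted p = 0.541). None of the 4 SLC35A members, which bring nucleotide sugars into the Golgi apparatus, passed. SLC35A3 read -0.125, -0.0249 and 0.0389 (mean -0.0371 ± 0.0827), SLC35A2 0.0639, -0.00673 and -0.147 (mean -0.0298 ± 0.107) and SLC35A1 -0.0170, -0.00513 and 0.000503 (mean -0.00720 ± 0.00892). None of the 3 carriers of fatty acids and acetyl-CoA passed. SLC33A1, which brings acetyl-CoA into the endoplasmic reticulum, read -0.122, -0.103 and 0.0360 (mean -0.0631 ± 0.0863), and the fatty acid transporters SLC27A1 and SLC27A5 read -0.0339, 0.0109 and -0.0234 and 0.0382, 0.0145 and -0.000355.

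Among 10 other and later-numbered carriers 2 rose. SLC71A2, a membrane protein also named MFSD14B, read 0.279, 0.186 and 0.0824 (mean 0.182 ± 0.0981, adjusted p = 0.0353), and SLC67A1, formerly SLC22A18, read 0.123, 0.142 and 0.0522 (mean 0.106 ± 0.0474). SLC68A1 lay just outside the threshold with 0.0680, 0.0656 and 0.0908 (mean 0.0748 ± 0.0139, adjusted p = 0.0512). Of the genes that encode no carrier, the antisense RNA gene SLC16A1-AS1 rose with 0.142, 0.113 and 0.0743 (mean 0.110 ± 0.0339), and the strand its probes report is not given in the sources used here. The gene SLC2A4RG, whose product binds the promoter of the glucose transporter SLC2A4, fell with -0.142, -0.0944 and -0.0783 (mean -0.105 ± 0.0330). SLC4A1AP read -0.148, -0.150 and -0.0162 and did not pass (mean -0.105 ± 0.0769, adjusted p = 0.0808).

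Relatives within a family moved apart in 6 families, each with at least 1 member that rose and 1 that fell. In 3 of them, SLC6, SLC37 and SLC38, a rise and a fall both kept their call in 7 fits with other settings, while SLC12A9, SLC41A1, SLC41A2, SLC41A3, SLC43A2 and SLC43A3 lost theirs in at least 1. The difference between SLC12A7 and SLC12A9, taken within each array, was 0.445, 0.475 and 0.449 (mean 0.456 ± 0.0161). It rests on 1 probe per gene. A further probe of SLC12A9 read -0.0350 and 0.0263 on arrays 1 and 2, and that of SLC12A7 read 0.00227 on array 3. SLC6A11 exceeded SLC6A18 by 0.322, 0.445 and 0.359 (mean 0.375 ± 0.0627). SLC37A2 exceeded SLC37A4 by 0.393, 0.371 and 0.217 (mean 0.327 ± 0.0957). The remaining differences averaged 0.284 ± 0.0658 for SLC38A9 over SLC38A2, 0.250 ± 0.0707 for SLC41A1 over SLC41A3 and 0.204 ± 0.0313 for SLC43A2 over SLC43A3. All 6 were above 0 on every array, which their choice by the calls nearly fixes. An exact sign-flip test of 3 arrays, two-sided, cannot give a p below 0.25, so these differences are given without a test.

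**Figure D3:**
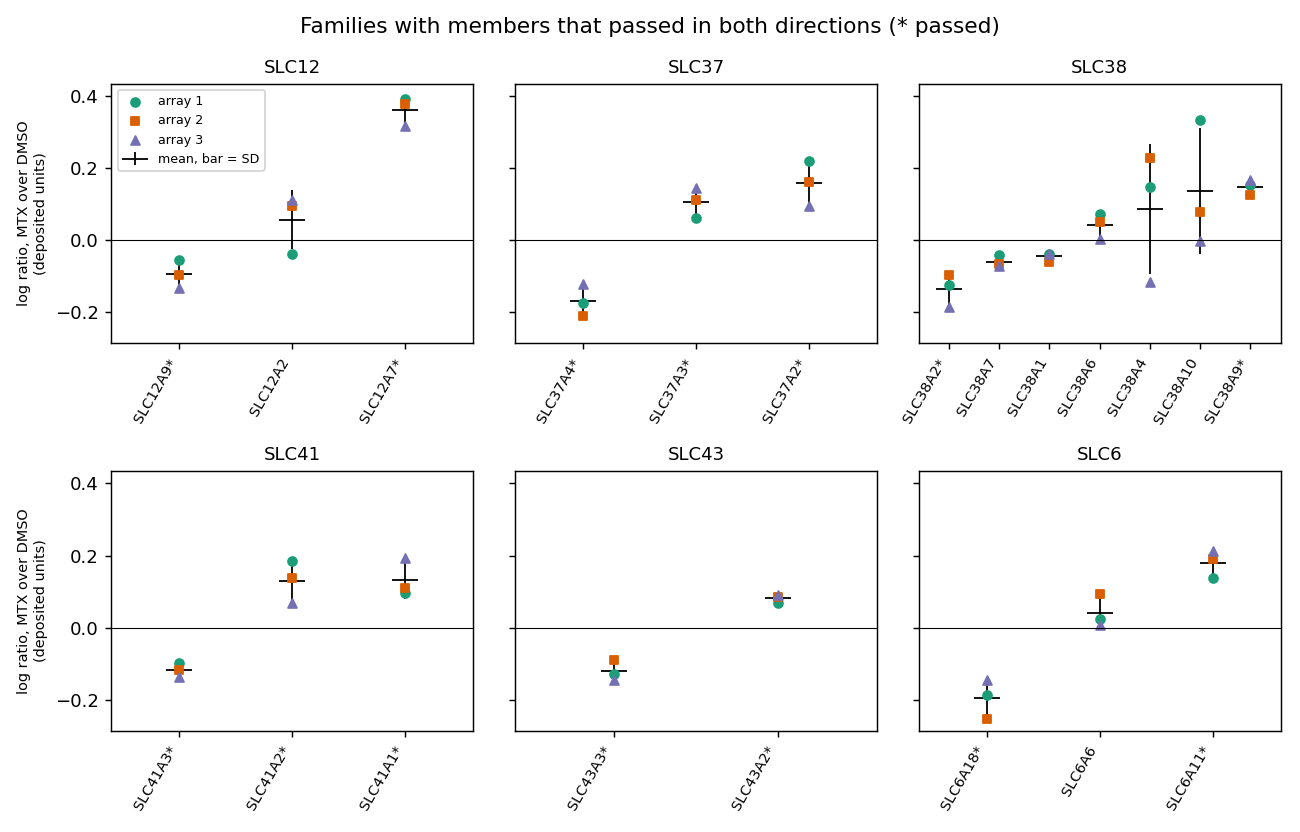
Log ratios (deposited units, vertical) of all measured members of the 6 families with a rise and a fall, on each array (points), with mean and SD; an asterisk marks members that passed. In the SLC41, SLC37 and SLC43 families every measured member passed, whereas 5 of 7 in the SLC38 family did not.

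Probes bear on how firm these values are. Of the 37 members that passed, 32 rest on 1 probe with values on all arrays. Of the 26 members with several such probes, 12 had probes whose means differ in sign, and 0 of these 12 were among the calls. Tested singly over 17569 probes, of which 30.5% were called, 32 of the 155 member probes rose and 11 fell. SLC7A11 was the member with probes called in opposite directions. For 12 of the 37 called members a further probe had values on 1 or 2 arrays, and its mean had the opposite sign for SLC47A1 and SLC41A3.

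**Figure D4:**
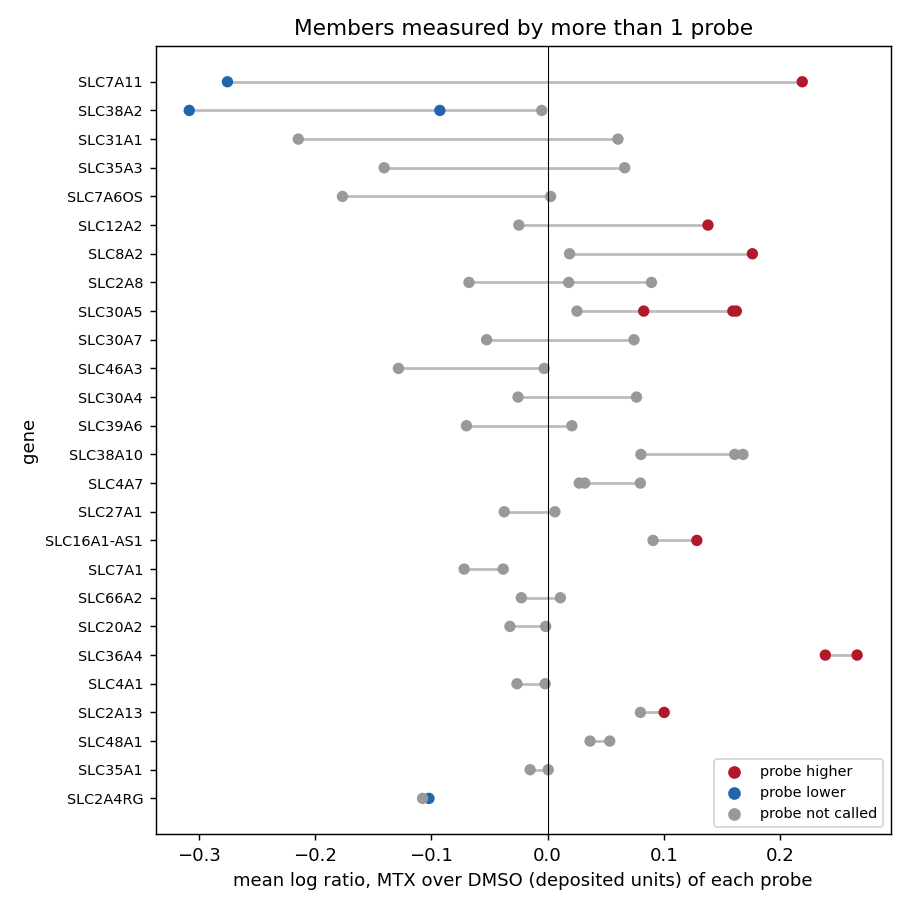
Mean log ratio (deposited units, horizontal) of every probe of the 26 members with more than 1 probe, ordered by the spread between probes and coloured by the call of the single probe. SLC7A11 has the widest spread, from -0.275 to 0.219, followed by SLC38A2, SLC31A1 and SLC35A3.

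Array 3 stood apart from the others. Across the 123 members arrays 1 and 2 correlated at Pearson r = 0.869, arrays 1 and 3 at 0.348 and arrays 2 and 3 at 0.452, beside 0.840, 0.521 and 0.588 across all genes. These correlations run over genes, which are no independent replicates. In 35 members (28.5%) arrays 1 and 2 shared a sign that array 3 opposed, against 19.7% of all genes, a difference that was not tested. Examples picked for their size were SLC28A3, the sodium-calcium exchanger SLC8A1 (0.245, 0.186 and -0.186) and SLC38A4 (0.146, 0.229 and -0.115). Others were SLC16A10, a transporter of aromatic amino acids (-0.327, -0.191 and 0.110), and SLC22A23 (0.179, 0.178 and -0.149), but their probes also disagreed. A further probe of SLC16A10 read 0.315 on array 1 and 0.135 on array 3. For SLC22A23 a further probe read -0.171 on both arrays 1 and 2, and another read 0.0244 and -0.0952 on arrays 1 and 3. Of the 37 called members, array 3 was the array nearest to 0 in 17 and the farthest in 18, beside 1153 and 935 of the 2726 genes called in all.

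**Figure D5:**
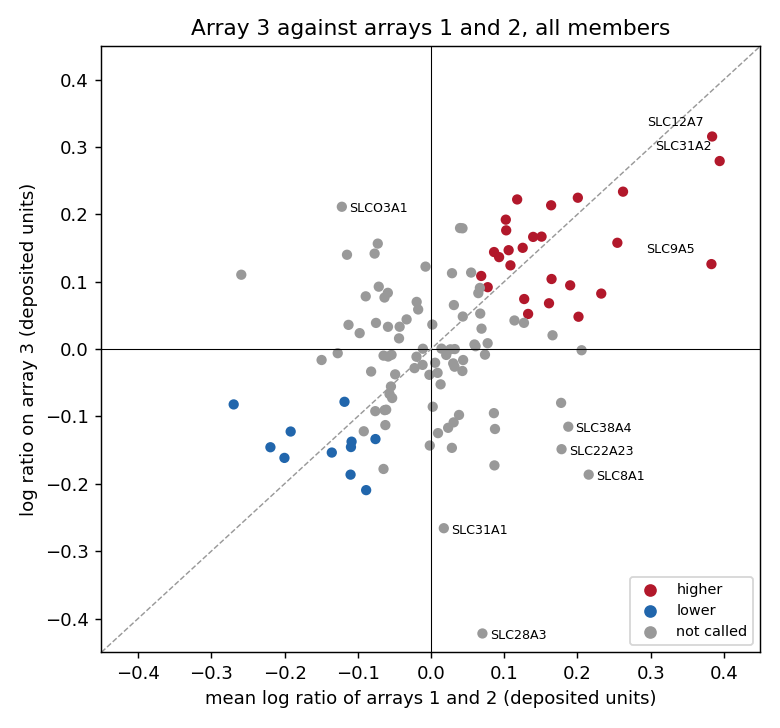
Log ratio on array 3 (vertical) against the mean of arrays 1 and 2 (horizontal), both in deposited units, for all 123 members, coloured by call; the dashed line marks equality. Members that passed lie in the upper right and lower left, and SLC8A1, SLC22A23, SLC38A4, SLC28A3 and SLCO3A1 lie on opposite sides of 0 on array 3 and on the other arrays.

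Of the genes with these symbols but no probe on every array, 37 had a probe with values on 2 arrays and 68 had probes with a value on a single array each. In the fit of all 11741 genes with probes on at least 2 arrays, in which 13.9% were called, 2 of these 37 rose and 0 fell. SLC30A1 had a mean of 0.173 (adjusted p = 0.0490). SLC60A2, a sodium-glucose transporter also named MFSD4B, read 0.205 on both arrays 2 and 3 (adjusted p = 0.0402). The means of the 37 were above 0 in 17 and below 0 in 20. SLC1A5, the glutamine transporter ASCT2, had a value on array 2 alone, -0.0501. SLC19A1, SLC29A1, SLC16A1 and SLC16A3 were not analysed here.

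Other genes of membrane transport were described from lists of pumps, partner proteins and ABC transporters. The sodium-potassium pump sets the gradient that sodium-coupled carriers use. Of its 14 listed genes 5 were measured on every array, namely ATP1B1, ATP1B2, ATP1B3, FXYD5 and FXYD7. No ATP1A gene, for the catalytic subunit, was among them. Of these 5 genes 0 passed, and ATP1B1 was closest at -0.0812 ± 0.0280 (adjusted p = 0.0525). Of 18 genes of the vacuolar proton pump, which acidifies lysosomes, 4 rose and 3 fell. ATP6V1A and TCIRG1 rose to 0.151 and 0.155, while ATP6V0D1 fell to -0.173. Of 7 partner proteins of carriers, BSG, a chaperone of lactate transporters, fell to -0.178 ± 0.0704 and NHERF1, a scaffold of membrane transporters, rose to 0.0948 ± 0.00803. Of 11 ABC transporters, which use ATP directly, 2 rose and 0 fell: ABCA5 to 0.275 ± 0.0344 and ABCC8 to 0.314 ± 0.107. The shares of genes called in these lists, 0%, 38.9%, 28.6% and 18.2%, stand beside the 29.0% of all genes.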

How the data were processed

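Ratios of MTX-treated over DMSO-treated BEAS-2B RNA were measured on 3 two-colour arrays. Per the series' design text, the authors scanned slides with a GenePix scanner, subtracted the local median background and normalised by LOWESS. The deposited values are log ratios, taken here as log10 because their base is not stated. Columns had medians of 0.00137, 0.00222 and 0.00194 and were used as deposited. The table has 31615 probes, 13027 with 1 symbol and values on all 3 arrays. Probes were averaged per gene and array. For each gene limma 3.58.1 in R 4.3.3 fitted the mean of the 3 ratios with a moderated spread and tested it against 0, and p-values were adjusted by Benjamini and Hochberg's method over all 9394 genes. If DMSO RNA was a single pool, its own spread is left out.

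Symbols came from the platform annotation, and 0 changed through the RefSeq table. Members and lists were chosen with earlier results of these data known, and 6 later-numbered families were placed in substrate groups after the data were seen. Every member that passed is named. Values per array are given for the 10 highest and 10 lowest of them and the 3 smallest p-values of each substrate group. They are also given for 18 carriers fixed whatever their values, of which 10 were measured on all 3 arrays. The fit was tested on simulated data. Alternatives varied centring, scale, spread model, probes, array position, threshold and arrays. The running mean used 51 probes. Figures were drawn with matplotlib 3.10.9.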

Additional observations from a re-analysis of the deposited data

How the results depend on the processing

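Counts of called genes are given as higher and lower. Array weights gave 49 and 31 members (3176 and 2625 of all genes). The weights were 0.766, 3.98 and 0.328 for arrays 1, 2 and 3, so this fit rests mostly on array 2. The threshold of 0.01 gave 4 and 0 members (164 and 63 genes). Probes on at least 2 arrays gave 15 and 6 of 160 members (958 and 675 of 11741 genes). Without moderation of the spread limma's fit called 0 and 0 members and 0 and 0 genes, with 23 and 13 members and 1730 and 1295 genes at an unadjusted p under 0.05. Leaving out 1 array gave 0 to 37 members higher and 0 to 18 lower, and 0 to 2372 and 0 to 1915 genes, the 0 being without array 1 or array 2. Apart from these, the 5 fits with centred or scaled arrays, the robust spread model, the first probe of each gene or the running mean removed kept both member counts within 1.5 times. No called member changed sign under any setting run here. Each had the same sign on every array, so leaving out, weighting or scaling arrays could not reverse its mean. The robust spread model, the fit without moderation and the threshold of 0.01 left the means as they were. Across those 5 fits, array weights and probes on at least 2 arrays, 17 of the 37 called members kept their call: SLC12A7, SLC31A2, SLC9A5, SLC36A4, SLC40A1, SLC19A2, SLC6A11, SLC37A2, SLC23A2, SLC38A9, SLC10A3, SLC49A4, SLC2A4RG, SLC38A2, SLC37A4, SLC1A7 and SLC6A18. The other 20 lost it in at least 1 fit, 18 of them with probes on at least 2 arrays, where SLC29A2 had an adjusted p of 0.0580.

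Reversals were seen in members that did not pass. Of these 86, 12 reversed with array weights, 8 with the first probe, 8 after removal of the running mean, 3 on centring, 1 on scaling, 1 with probes on at least 2 arrays and 12, 14 and 15 without array 1, 2 and 3. Those among the genes named by the rule follow. With the first probe SLC12A2 averaged -0.0247, SLC27A1 0.00637 and SLC31A1 0.0606. With array weights SLC27A1 averaged 0.00197, SLC28A3 0.0244 and SLC31A1 0.00243, and after removal of the running mean SLC20A2 averaged 0.0222 and SLCO3A1 0.0111. Leaving out 1 array gave ranges of -0.0358 to 0.00464 for SLC20A2, -0.187 to 0.0703 for SLC28A3, -0.127 to 0.0176 for SLC31A1, -0.0683 to 0.00962 for SLC34A3, -0.0767 to 0.0286 for SLC35A2, -0.0751 to 0.00696 for SLC35A3, -0.0589 to 0.0206 for SLC46A1 and -0.122 to 0.0462 for SLCO3A1. The causes were not tested. No paired analysis was possible because the arrays form a single group. Signal over background was not used here, so its limits could not be set.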
